A study of Mus musculus with 6 samples.

Results

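The levels of 10 imprinted genes, *H19*, *Igf2*, *Igf2r*, *Meg3*, *Peg3*, *Peg10*, *Mest*, *Cdkn1c*, *Grb10* and *Impact*, were examined in mouse embryonic stem (mES) cells. They were listed by name, with earlier results of these data known, and belong to the 16668 genes listed in every library, and all 10 were among the 11538 genes tested, whose mean reached 0.5 RPKM. RPKM scales the number of reads to the length of the exons and to the mapped reads of the library. This allows an approximate comparison between genes and between libraries, without a correction for RNA composition.

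The study performed RNA-seq on E14 mES cells, a line of strain 129/Ola, at passages 3 to 5, grown without feeder cells in 2i medium with LIF. All cells received 1 µM PD0325901 and 3 µM CHIR99021, inhibitors of MEK and of GSK3, with 1000 U/ml LIF, and knockdown was by transfected siRNA. The 6 libraries are labelled as 3 groups of 2: control (genotype given as wild type), Ring1B-KD and Dzip3-KD. Ring1B, the product of *Rnf2*, and Dzip3 are both ligases that ubiquitylate histone H2A. Nothing in the labels says that libraries of a group came from separate cultures, while the study calls them biological duplicates, and the p-values measure only the spread between these 6 libraries.

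Names and labels of the files disagree. For 4 of the 6 libraries the file name carries another condition word than the sample label. In order of file number, control 1 has the word control, control 2 the word Ring1BKD, Ring1B-KD 1 the word Dzip3KD, Ring1B-KD 2 the word control, Dzip3-KD 1 the word Ring1BKD and Dzip3-KD 2 the word Dzip3KD. Each word thus occurs once in files 1 to 3 and once in files 4 to 6. Both libraries labelled control lie in files 1 to 3 and both labelled Dzip3-KD in files 4 to 6. A Dzip3-KD difference by label therefore cannot be told apart from one between these sets of files. Values below are given by label, with the word beside it, and neither name is taken as proof of a knockdown. *Rnf2* was at 30.6 RPKM in control 1, 20.4 in control 2, 26.8 in Ring1B-KD 1, 28.8 in Ring1B-KD 2, 19.4 in Dzip3-KD 1 and 28.2 in Dzip3-KD 2, so that its lowest levels were in both libraries with the word Ring1BKD and not in those labelled Ring1B-KD. *Dzip3* was lowest, at 1.18 and 1.31 RPKM, in Ring1B-KD 1 and Dzip3-KD 2, both with the word Dzip3KD. The libraries held 3015349 to 3583611 mapped reads, at which 3 reads on 2 kb of exon correspond to 0.419 to 0.497 RPKM.

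An imprinted gene is transcribed mainly from the maternal or mainly from the paternal chromosome, according to DNA methylation laid down in the egg or the sperm at an imprinting control region and kept through the early embryo by ZFP57, TRIM28 and DNMT1. Many imprinted genes lie in clusters that hold a long noncoding RNA beside protein-coding genes of growth, metabolism and placental development. Embryonic stem cell lines, and lines kept in 2i in particular, are known to lose imprints to varying degree, which can silence a gene on both chromosomes or open it on both. RPKM does not separate the parental chromosomes, so the values below are levels and say nothing on imprinting status. In such bulk libraries, fewer cells with a transcript and less transcript per cell cannot be told apart.

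RefSeq promoters (build GRCm38.p6, 250 bases before to 50 after a start site) were found for 6 of the 10 members, 13 promoters in all, of which 2 windows of *Mest* nearly coincide. *H19*, *Peg10*, *Cdkn1c* and *Impact* had no entry. The 3 shown are those of *Meg3* and *Grb10*, because these genes differed most between libraries among members with an entry, and of *Mest*, because it varied least. Capitals mark the hexamer bound by ZFP57 when methylated (TGCCGC, or GCGGCA when read on the other strand), which was searched on both strands.
*Meg3* promoter (chr12:109540746-109541045, plus strand): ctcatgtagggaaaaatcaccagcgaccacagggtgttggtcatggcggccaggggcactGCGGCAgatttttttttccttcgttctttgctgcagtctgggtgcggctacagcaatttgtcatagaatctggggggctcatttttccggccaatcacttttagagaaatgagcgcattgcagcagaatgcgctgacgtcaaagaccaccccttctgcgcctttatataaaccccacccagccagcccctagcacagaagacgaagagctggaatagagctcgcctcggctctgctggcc
*Mest* promoter (chr6:30737800-30738099, plus strand): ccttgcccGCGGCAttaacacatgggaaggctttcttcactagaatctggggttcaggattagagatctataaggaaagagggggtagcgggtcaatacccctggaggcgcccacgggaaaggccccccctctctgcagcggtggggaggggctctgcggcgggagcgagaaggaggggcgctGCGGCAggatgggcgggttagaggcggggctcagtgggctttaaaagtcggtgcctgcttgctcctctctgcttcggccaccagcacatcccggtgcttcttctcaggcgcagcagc
*Grb10* promoter (chr11:12037371-12037670, minus strand): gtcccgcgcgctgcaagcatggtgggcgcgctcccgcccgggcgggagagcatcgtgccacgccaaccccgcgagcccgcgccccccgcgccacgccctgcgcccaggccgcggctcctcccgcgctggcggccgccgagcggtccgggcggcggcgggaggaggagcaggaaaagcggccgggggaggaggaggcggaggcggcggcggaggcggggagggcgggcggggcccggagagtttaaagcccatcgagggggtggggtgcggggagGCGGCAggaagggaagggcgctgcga
The *Mest* window shown holds 2 matches, and the *Meg3* and *Grb10* windows shown hold 1 each. Each of these 3 genes also has a window, not shown, that holds 0 matches. Of the 13 promoters of members, 5 held a match, among them the 2 *Mest* windows that nearly coincide. Of all 32851 promoters of the same length, not matched for CpG content, 11.6% did. The *Grb10* window holds 45 CpG sites, a number that 1.93% of all promoters reach or pass, against 17 in the *Mest* window, 13 in the *Meg3* window and a median of 7 over all promoters. A match describes these letters and is no evidence of binding.

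The 10 genes covered a wide range of levels. *Impact*, a paternally expressed regulator of the translational control kinase GCN2, was highest with a mean of 38.3 ± 7.31 RPKM (SD, n = 6). *Mest*, a paternally expressed gene for a hydrolase-like protein, followed at 26.2 ± 2.85, and *Grb10*, an adaptor that dampens insulin and IGF signalling, at 15.9 ± 5.13. These levels of *Impact* and *Mest* were above those of 96.75% and 94.49% of all listed genes.

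In the middle of the order stood *Peg10*, a paternally expressed retrotransposon-derived gene required in the placenta, at 11.1 ± 5.11 RPKM, and *Meg3*, a maternally expressed noncoding RNA, at 10.03 ± 3.62. *Igf2r*, the receptor that removes IGF2 from the cell surface, was at 9.48 ± 1.20 RPKM and *Peg3*, a paternally expressed zinc finger protein, at 6.57 ± 1.20. The lowest levels were those of *Cdkn1c*, a maternally expressed inhibitor of cyclin-dependent kinases (2.20 ± 0.648), of *H19*, a maternally expressed noncoding RNA (2.01 ± 1.74), and of *Igf2*, the paternally expressed growth factor gene beside it (0.641 ± 0.238). Of the 9 pairs of neighbours in this order, the ranges over the 6 libraries were apart only for *Mest* and *Grb10* and for *Peg3* and *Cdkn1c*. The ranges of the other neighbours overlapped. Within libraries, however, *Grb10* was above *Peg10* and *Igf2r* above *Peg3* in 6 of 6, and *Impact* was above *Mest* and *H19* above *Igf2* in 5 of 6. The order held less often for *Cdkn1c* above *H19* (4 of 6), *Meg3* above *Igf2r* (3 of 6) and *Peg10* above *Meg3* (2 of 6).

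**Figure D1:**
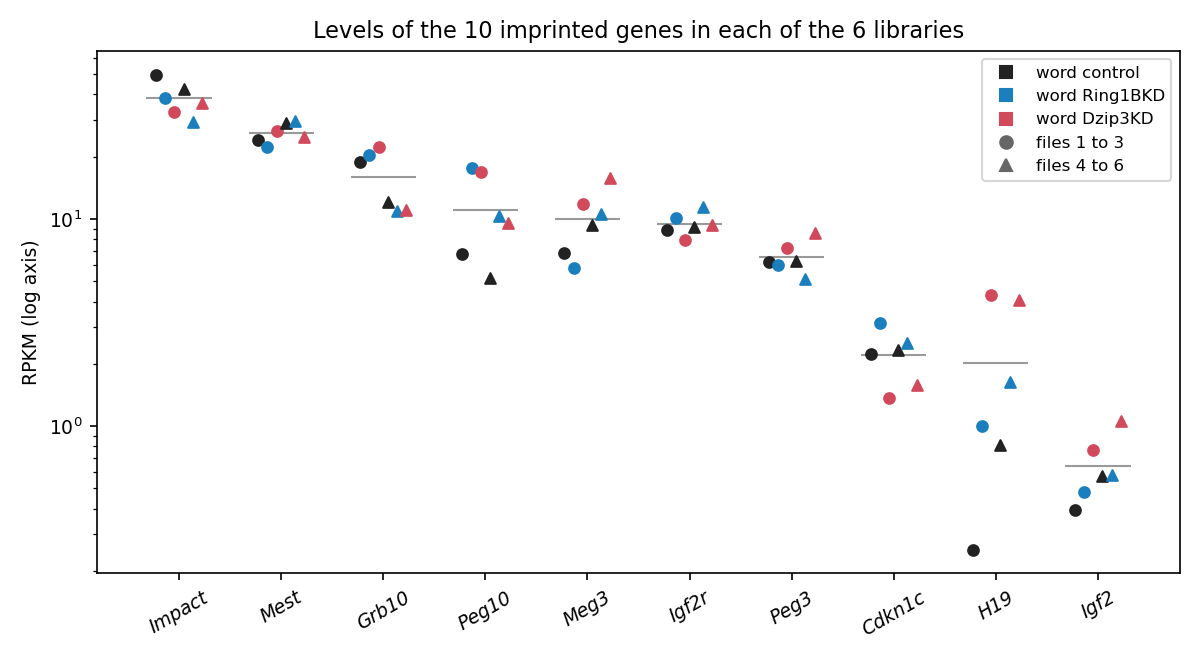
RPKM of the 10 imprinted genes on a log axis, 1 point per library, with the word of the file name as colour and the set of file numbers as shape, and a grey line at the mean of 6. *Impact* leads and *Igf2* is lowest, *H19* has the widest spread, and *Mest* the narrowest.

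The members *H19*, *Peg10*, *Meg3* and *Grb10* varied more between libraries than most genes. The SD of log2(RPKM + 1) over the 6 libraries was larger for *H19* than for 99.14% of the tested genes, for *Peg10* than for 97.3%, for *Meg3* than for 91.94% and for *Grb10* than for 89.85%. *Impact* (58.32%) stood near the middle, and *Mest* (16.25%) and *Igf2r* (19.71%) were among the steadier genes. Measured against read counting, the variance between libraries was 57.4 times the counting variance for *Meg3*, 51.9 times for *Peg10*, 28.8 times for *Grb10* and 15.2 times for *Impact*, beside a median of 3.13 and a 90th percentile of 13.9 over genes averaging 50 reads or more. It was 12.8 times for *H19*, which has 108 reads in all, beside a median of 1.98 over all tested genes with recovered reads. For *Cdkn1c* and *Igf2* that ratio was 1.275 and 1.263, so their differences between libraries were close to what counting alone gives at 85 and 55 reads in all. At an equal relative spread this ratio is larger for genes with more reads, and *Impact* and *Meg3* had 2614 and 2624 reads in all. Whole reads could not be recovered for *Peg3* and *Mest*.

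*H19* and *Igf2* are neighbours on chromosome 7 (chr7:149761434-149764048 and chr7:149836673-149852721 in NCBIM37, which is mm9, both on the minus strand) and share an imprinting control region and enhancers. *H19* was at 0.253 RPKM in control 1 and 0.809 in Ring1B-KD 2 (word control), at 1.00 in control 2 and 1.64 in Dzip3-KD 1 (word Ring1BKD), and at 4.30 in Ring1B-KD 1 and 4.05 in Dzip3-KD 2 (word Dzip3KD). These levels rest on 2, 7, 9, 14, 38 and 38 reads in the same order. By word the 3 pairs of libraries did not overlap, and the highest 2 libraries of all were those with the word Dzip3KD, while by label Ring1B-KD held both a high and a low library.

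On the log2(RPKM + 1) scale *H19* was 1.78 ± 0.22 (SE) higher in the Dzip3KD-word than in the control-word libraries, with an adjusted p of 0.172 in limma. By unadjusted p it stood at rank 3 of all tested genes in that comparison, and the first 3 share this adjusted p. Its difference was 2.08 within files 1 to 3 and 1.48 within files 4 to 6. Between the Ring1BKD word and the control word it was 0.61 ± 0.22, with an adjusted p of 0.511. By label the differences from control were 0.97 ± 0.51 for Ring1B-KD (adjusted p = 0.902) and 1.20 ± 0.51 for Dzip3-KD (adjusted p = 0.399). The latter was 0.74 without Dzip3-KD 2 and 2.76 with the set of file numbers as a block (adjusted p = 0.829). In that block the set difference comes from Ring1B-KD 1 and Ring1B-KD 2 alone, the only label in both sets. No comparison called *H19*, but without Ring1B-KD 2 the Dzip3KD-word difference was 1.96 with an adjusted p of 0.0445. The size of the change depends on the pseudocount, and with 0.1 in place of 1 the Dzip3KD-word difference was 2.92 with an adjusted p of 0.637.

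*Igf2* stayed near the limit of the depth, with 0.391 and 0.571 RPKM in the control-word libraries (control 1 and Ring1B-KD 2), 0.482 and 0.578 in the Ring1BKD-word libraries (control 2 and Dzip3-KD 1) and 0.770 and 1.05 in the Dzip3KD-word libraries (Ring1B-KD 1 and Dzip3-KD 2), from 5 to 16 reads. Both values of the Dzip3KD word lay above the other 4. The fitted difference from the control word was 0.37 ± 0.21 (adjusted p = 0.777), which was not detectable as a change at this depth. Over the 6 libraries, *H19* and *Igf2* had a Pearson correlation of 0.906, a description over libraries that share their depth and preparation.

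*Meg3* is the first of a series of maternally expressed noncoding RNAs in the *Dlk1*-*Dio3* cluster on chromosome 12 (chr12:110779211-110809936, plus strand, NCBIM37), and is followed by *Rian* and *Mirg*, which host small nucleolar RNAs and microRNAs. It was at 6.83 RPKM in control 1 and 9.41 in Ring1B-KD 2 (word control), 5.78 in control 2 and 10.6 in Dzip3-KD 1 (word Ring1BKD), and 11.8 in Ring1B-KD 1 and 15.8 in Dzip3-KD 2 (word Dzip3KD). Within each set of 3 file numbers the Dzip3KD-word library was the highest, by 0.71 over the control-word library in files 1 to 3 and by 0.69 in files 4 to 6 on the log2 scale. Both libraries labelled control were the lowest of the 6, so the labels also separated control from the other groups.

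The fitted difference of *Meg3* between the Dzip3KD word and the control word was 0.70 ± 0.16 (adjusted p = 0.658), and that for the Ring1BKD word was -0.03 ± 0.16 (adjusted p = 0.977). By label it was 0.66 ± 0.23 for Ring1B-KD (adjusted p = 0.902) and 0.94 ± 0.23 for Dzip3-KD (adjusted p = 0.300). Between files 4 to 6 and files 1 to 3 it was 0.53 ± 0.13 with an adjusted p of 0.0536. With the labels in the model it was -0.30. Only the label Ring1B-KD occurs in both sets, so that value is Ring1B-KD 2 (word control) minus Ring1B-KD 1 (word Dzip3KD). None of these passed the threshold of 0.05. The difference between the sets of file numbers was called in 3 of 13 alternative limma fits, with adjusted p from 0.0464 to 0.717.

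Its neighbours followed a like order. *Rian* was at 27.3 RPKM in control 1, 29.5 in control 2, 36.0 in Ring1B-KD 1, 37.8 in Ring1B-KD 2, 40.4 in Dzip3-KD 1 and 58.2 in Dzip3-KD 2, the last again being a library with the word Dzip3KD. It rose by 0.52 ± 0.11 between files 1 to 3 and files 4 to 6 (adjusted p = 0.0285) and was 0.50 ± 0.13 higher for the Dzip3KD word (adjusted p = 0.707). *Mirg* was at 11.6 and 16.1 RPKM in the Dzip3KD-word libraries and at 6.28 to 7.69 in the other 4, a difference of 0.88 ± 0.16 from the control word (adjusted p = 0.540). *Meg3* correlated over the 6 libraries at 0.914 with *Rian* and 0.862 with *Mirg*, which are transcribed in the same direction next to it. Values as high were found between chromosomes, at 0.914 for *Meg3* with *Igf2* and 0.859 for *H19* with *Mirg*. *Dlk1*, the paternally expressed coding gene of the cluster, had 1 to 9 reads per library and was below the level tested.

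**Figure D2:**
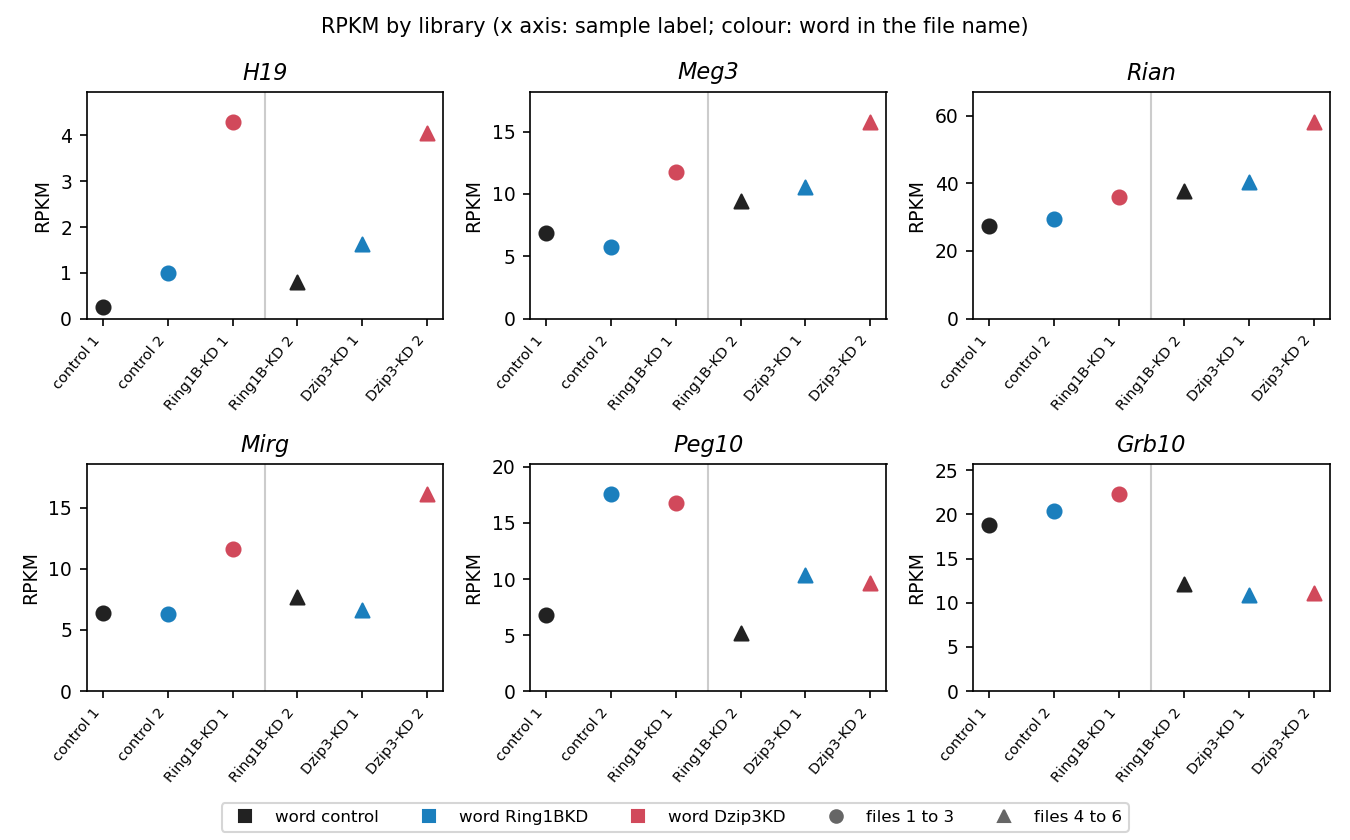
RPKM from 0 upward for 6 genes in each library, in order of file number, with the sample label on the x axis, the word of the file name as colour and a line between files 1 to 3 and files 4 to 6. *H19*, *Meg3*, *Rian* and *Mirg* are highest in the 2 red libraries within each set of file numbers, *Peg10* is lowest in the 2 black ones, and *Grb10* is split by the set of file numbers.

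*Peg10* (chr6:4697306-4710514, plus strand, NCBIM37) followed another order. It was at 6.77 RPKM in control 1 and 5.22 in Ring1B-KD 2 (word control), 17.6 in control 2 and 10.3 in Dzip3-KD 1 (word Ring1BKD), and 16.8 in Ring1B-KD 1 and 9.63 in Dzip3-KD 2 (word Dzip3KD), from 115 to 402 reads. The 2 control-word libraries were the lowest of the 6 and the other 2 words overlapped, whereas within each of the labels control and Ring1B-KD a low and a high library stood side by side.

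The difference of *Peg10* from the control word was 1.06 ± 0.17 for the Ring1BKD word (adjusted p = 0.0504) and 0.99 ± 0.17 for the Dzip3KD word (adjusted p = 0.438). The first lies just outside the threshold and was called in 6 of 14 alternative fits, with adjusted p from 0.0328 to 0.948. Without single libraries it was 0.0328 (Ring1B-KD 2) and 0.0453 (Dzip3-KD 2), but 0.262 (control 1), 0.254 (control 2), 0.147 (Dzip3-KD 1) and 0.0507 (Ring1B-KD 1), with the difference between 0.86 and 1.27. In files 1 to 3 the differences were 1.26 and 1.20, and in files 4 to 6 they were 0.87 and 0.77. By label *Peg10* differed by -0.19 ± 0.50 for Ring1B-KD and -0.13 ± 0.50 for Dzip3-KD, with adjusted p of 0.982 and 0.924.

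*Peg10* also fell by 0.59 ± 0.14 between files 1 to 3 and files 4 to 6 (adjusted p = 0.0391). That call was lost without control 2 (adjusted p = 0.153), Ring1B-KD 1 (0.103), Dzip3-KD 1 (0.150) or Dzip3-KD 2 (0.0989), while the difference stayed at -0.52 to -0.53. It was kept without control 1 or without Ring1B-KD 2 (adjusted p = 0.042 each), at -0.73. With the labels in the model the difference was -1.52 (adjusted p = 0.293), which is Ring1B-KD 2 minus Ring1B-KD 1 alone.

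*Grb10* (chr11:11830511-11938686, minus strand, NCBIM37) was split by file number. It was at 18.8 RPKM in control 1, 20.3 in control 2 and 22.3 in Ring1B-KD 1, which are files 1 to 3, and at 12.1 in Ring1B-KD 2, 10.9 in Dzip3-KD 1 and 11.1 in Dzip3-KD 2, which are files 4 to 6. The 2 sets did not overlap, and the 3 words lay within 22.3 and 18.8 RPKM in the first and within 12.1 and 10.9 in the second.

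*Grb10* fell by 0.79 ± 0.12 on the log2 scale between files 1 to 3 and files 4 to 6 (adjusted p = 0.0139 in limma), and leaving out any single library kept the adjusted p between 0.0144 and 0.0464. With the labels in the model the difference was -0.83, with an adjusted p of 0.207. That value is Ring1B-KD 2 minus Ring1B-KD 1, since only this label occurs in both sets. By word it differed by -0.01 ± 0.15 for Ring1BKD and 0.06 ± 0.15 for Dzip3KD, with adjusted p of 0.989 and 0.958. The Dzip3-KD label covers files 5 and 6 and the control label files 1 and 2. A difference of -0.78 ± 0.26 by label (adjusted p = 0.323) therefore cannot be told apart from that of the file numbers. With the set of file numbers in the model, drawn from the same Ring1B-KD libraries, it was 0.057. What the file numbers stand for is not given in the labels. Of the 4 markers of primed epiblast, *Otx2* was split by file number too, at 0.871 to 1.33 RPKM in files 1 to 3 and 5.72 to 12.1 in files 4 to 6. *Pou3f1* was at 0.788 to 1.21, and *Fgf5* and *T* did not pass 0.367. Summed markers of primitive endoderm were lower in files 4 to 6, at 1.09 to 1.25 RPKM against 1.75 to 2.88. Of the 6 markers, 5 stayed under 1 RPKM in every library, near the limit of the depth. *Dab2* was at 0.788 to 1.60 in files 1 to 3 and 0.196 to 0.529 in files 4 to 6, while *Gata4* was highest in Ring1B-KD 2 (0.713). The part of either list in the differences of *Grb10* and *Peg10* was not tested.

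*Impact* on chromosome 18 was highest in the control-word libraries, with 49.96 RPKM in control 1 and 42.7 in Ring1B-KD 2, against 38.6 in control 2 and 29.3 in Dzip3-KD 1 (word Ring1BKD) and 33.0 in Ring1B-KD 1 and 36.4 in Dzip3-KD 2 (word Dzip3KD). Its difference from the control word was -0.45 ± 0.16 for Ring1BKD (adjusted p = 0.480) and -0.40 ± 0.16 for Dzip3KD (adjusted p = 0.754). Single libraries moved both, the first to -0.27 without Dzip3-KD 1, and the second to -0.18 without Ring1B-KD 1 and -0.62 without Dzip3-KD 2. By label it was -0.22 ± 0.21 for Ring1B-KD and -0.41 ± 0.21 for Dzip3-KD (adjusted p = 0.938 and 0.454).

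For the remaining members the differences were smaller or rested on few reads. *Cdkn1c* was at 1.37 and 1.58 RPKM in the Dzip3KD-word libraries, Ring1B-KD 1 and Dzip3-KD 2, and between 2.22 and 3.15 in the other 4. That is a difference of -0.41 ± 0.20 from the control word (adjusted p = 0.754), resting on 9 and 11 reads. *Peg3* ranged from 5.15 in Dzip3-KD 1 to 8.59 in Dzip3-KD 2, the lowest and the highest library carrying the same label. *Mest* ranged from 22.4 in control 2 to 29.7 in Dzip3-KD 1, and *Igf2r* from 7.93 in Ring1B-KD 1 to 11.4 in Dzip3-KD 1. Reads of *Mest* and of *Copg2*, which overlaps it on the other strand, and of *Igf2r* and the noncoding *Airn* that starts within it, may not be separable, because it is not stated whether counting used the strand.

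The 5 comparisons can be set side by side for the 10 genes. By label, no member passed an adjusted p of 0.05 for Ring1B-KD (0.0% of tested genes did), and at an unadjusted p under 0.05 in limma only *Meg3* was higher and 0 were lower, where 5.1% of tested genes passed. For Dzip3-KD by label the adjusted count was again 0 of 10 (0.0% of tested genes), and at the unadjusted threshold *H19* and *Meg3* were higher and *Grb10* lower, against 12.2% of tested genes. The median difference of the members was -0.01 and 0.12 in these comparisons, beside -0.02 and -0.07 over all tested genes.

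By word, no member passed the adjusted threshold for Ring1BKD, where 0.416% of tested genes did, and *Peg10* and *H19* were higher and *Impact* lower at an unadjusted p under 0.05, which 8.31% of genes passed. For Dzip3KD no member and no other gene passed (0.0%), and *H19*, *Peg10* and *Meg3* were higher and *Impact* lower at the unadjusted threshold, which 6.52% of genes passed. Members had a median of 0.02 and 0.18, and all tested genes -0.08 and -0.03. Both words are compared with the same control-word libraries. Between files 4 to 6 and files 1 to 3, *Grb10* and *Peg10* were called, 2 of 10 members, where 7.62% of tested genes were called. *Meg3* joined them at the unadjusted threshold, which 26.5% of genes passed.

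**Figure D3:**
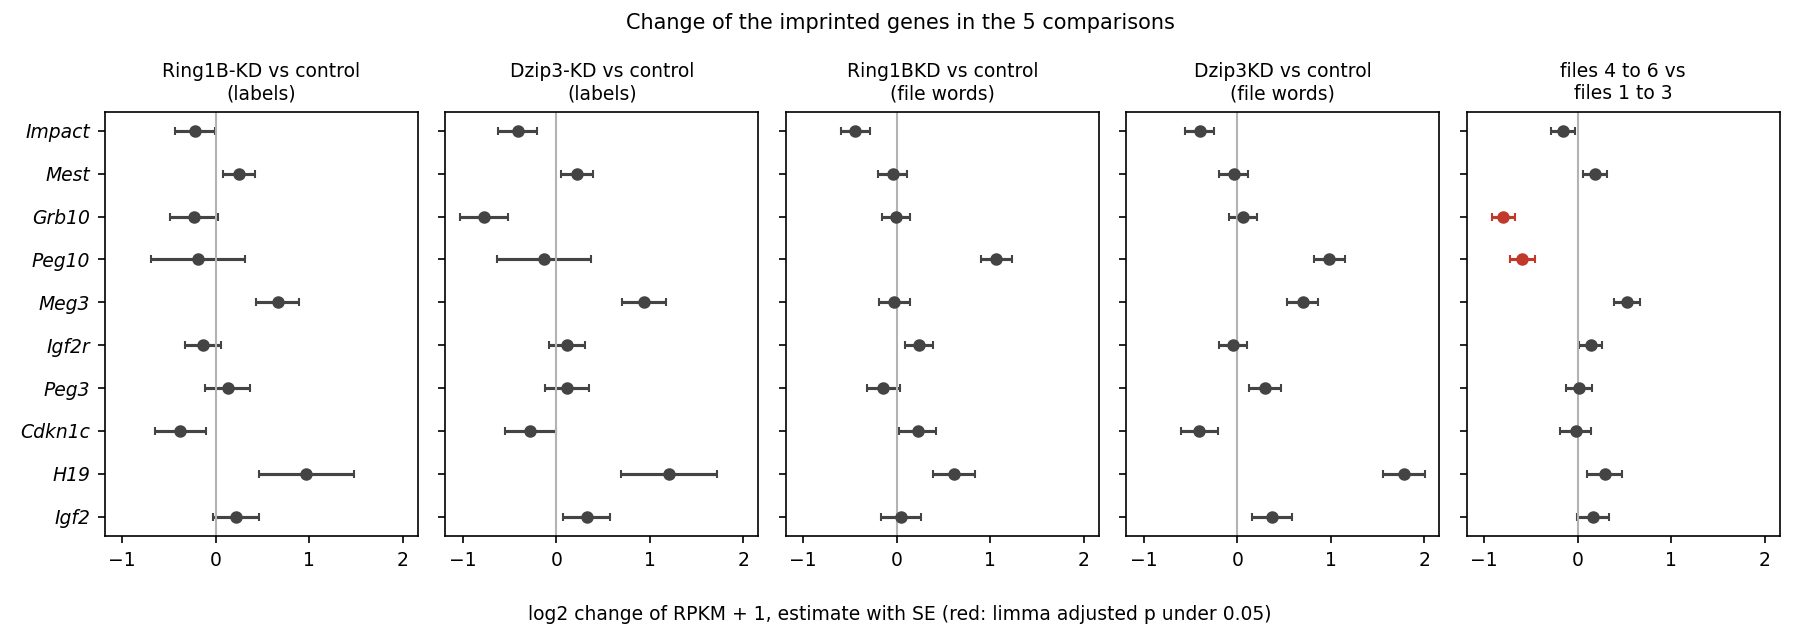
Estimated log2 change of RPKM + 1 with its SE for the 10 imprinted genes in each of the 5 comparisons, with adjusted p under 0.05 in red. Only *Grb10* and *Peg10* in the comparison of file numbers are red, and the error bars of *H19* and *Peg10* are wider by label (0.51 and 0.50) than by word (0.22 and 0.17).

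The sets of file numbers do not share a control-word library, so each gives its own differences. For the Ring1BKD word, 7 of 10 members differed from the control word in the same direction in both sets, where 59.2% of tested genes did. For the Dzip3KD word it was also 7 of 10, where 51.8% of tested genes did. *Meg3*, *Mest* and *Grb10* changed direction for the first word and *Igf2r*, *Mest* and *Grb10* for the second, all with differences of at most 0.24 in size.

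**Figure D4:**
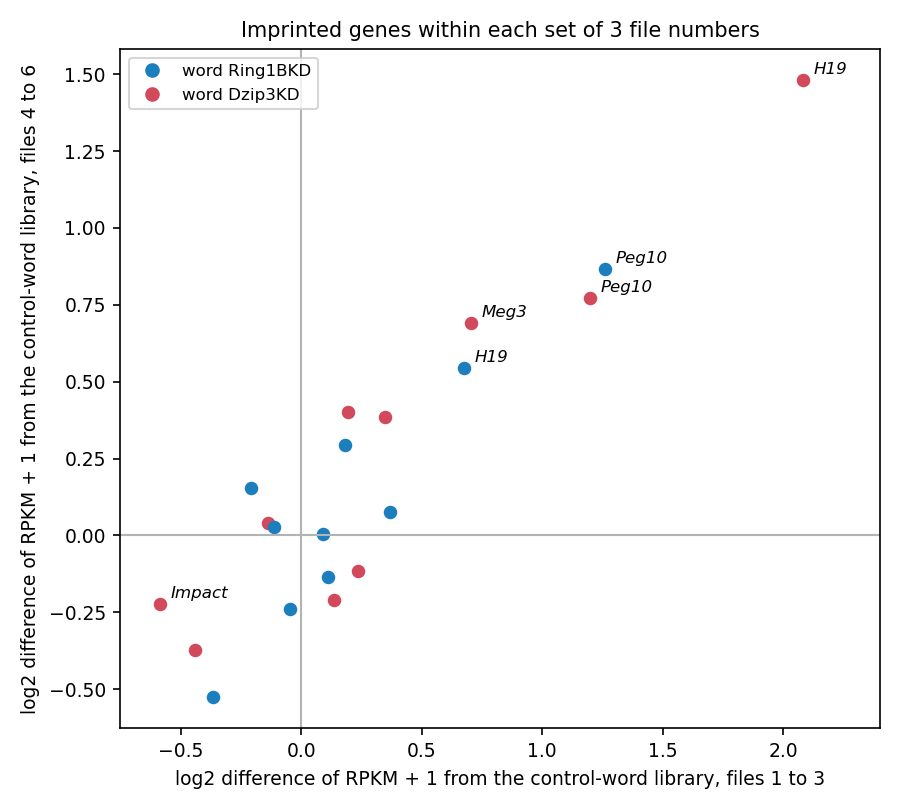
Log2 difference of RPKM + 1 from the control-word library in files 1 to 3 (x axis) and in files 4 to 6 (y axis), 1 point per gene and word. *H19* and *Meg3* for the Dzip3KD word and *Peg10* for both words lie in the upper right, at 0.69 or more on both axes, and *Impact* lies in the lower left.

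Imprinted genes beyond the 10 members were taken from a list of 70, of which 58 were listed in the files and 41 were tested. The highest were *Cd81*, a tetraspanin, at a mean of 100.6 RPKM, *Rian* at 38.2, *Slc38a4*, an amino acid transporter, at 32.7, *Commd1* at 29.6, *Mcts2* at 27.3, *Cobl* at 24.7 and *Plagl1*, a zinc finger factor, at 21.6, followed by *Nap1l4*, *Tssc4* and *Blcap* at 11.7 to 18.3. In the comparison of file numbers 4 of the 41 were called, where 7.62% of all tested genes were: *Cd81* (0.83) and *Rian* (0.52) rose and *Plagl1* (-0.89) and *Cobl* (-0.71) fell, with adjusted p of 0.0069, 0.0285, 0.0268 and 0.0212. *Cobl* lies beside *Grb10* on chromosome 11, and was at 28.2 to 34.4 RPKM in files 1 to 3 and 16.8 to 21.2 in files 4 to 6, an order like that of *Grb10*. At an unadjusted p under 0.05 in limma 8 were higher and 4 lower in all, where 26.5% of tested genes passed, among them *Nnat* (0.52), *Ascl2* (-0.69) and *Snurf* (-0.59), which shares a transcript with *Snrpn*.

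By label and by word none of the 41 passed the adjusted threshold. At the unadjusted threshold 0 were higher and 1 lower (*Copg2*, -0.54) for Ring1B-KD by label (5.1% of tested genes passed), and 5 were higher and 3 lower for Dzip3-KD by label (12.2%). In the Dzip3-KD comparison *Phlda2*, which restrains growth of the placenta (0.90), *Cd81* (0.88), *Nnat* (0.78), *Rian* (0.75) and *Dhcr7*, an enzyme of cholesterol synthesis (0.50), were the higher genes, with *Plagl1* (-0.84) and *Cobl* (-0.73) lower. These Dzip3-KD differences by label cannot be told apart from those of the file numbers, as for *Grb10*. For the Ring1BKD word 0 were higher and 1 lower (*Smoc1*, named after its value of -0.43 was seen), against 8.31% of tested genes. For the Dzip3KD word, where 6.52% of tested genes passed, *Mirg* (0.88), *Phlda2* (0.86), *Pon2* (0.52) and *Rian* (0.50) were higher and *Commd1* (-0.64) lower. The median over the 41 lay between 0.02 and 0.04 in all 5 comparisons.

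Genes whose pattern was most like those of the most variable members were sought among the 5510 genes whose mean reached 5 RPKM. With *H19* these were *Phpt1* (Pearson correlation 0.978 over 6 libraries), *Ndufs6* (0.976), *Dynll1* (0.957), *Wwc2* (0.956) and *Acsl4* (0.945). With *Peg10* they were *Exosc4* (0.987), *Psmd10* (0.978), *Noa1* (0.974), *Ndufa10* (0.967) and *Rad17* (0.962). None of them is on the imprinted lists. A correlation of at least 0.95 was reached by 4 genes with *H19* and 7 with *Peg10*. The genes named are the highest of 5510 values, each over only 6 libraries, and were not tested.

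The libraries held the markers of mES cells, with *Pou5f1*, *Nanog*, *Sox2* and 5 others summing to 1122 to 1468 RPKM. That sum was 1442 to 1468 for the control word, 1200 to 1213 for the Ring1BKD word and 1122 to 1360 for the Dzip3KD word, an order like that of *Impact*. Single markers were split by file number instead. *Esrrb* (110.6 to 136.1 RPKM in files 1 to 3, 75.6 to 106.5 in files 4 to 6), *Klf4* and *Tfcp2l1* were lower in files 4 to 6. *Nanog* (194.2 to 246.1 against 265.6 to 291.5) and *Tdgf1* (124.2 to 146.5 against 176.6 to 220.0) were higher there. Markers of trophectoderm, whose placental descendants express *Peg10* and *H19* strongly, summed to 2.26 to 4.17 RPKM (5 of 6 listed), from 2.26 to 3.41 for the control word, 3.53 to 4.17 for the Ring1BKD word and 3.18 to 3.36 for the Dzip3KD word. The Ring1BKD-word libraries had the highest sums. Of the 5 markers, 3 stayed under 1 RPKM in every library, and *Cdx2* was highest in control 1 (0.618) and at 0 in files 4 to 6. *Peg10* was at 17.6 and 10.3 RPKM for the Ring1BKD word, 16.8 and 9.63 for the Dzip3KD word and 6.77 and 5.22 for the control word. Its relation to these sums was not tested. Those of primitive endoderm (6 of 6 listed) are given beside *Grb10*, and those of fibroblasts summed to 1.67 to 3.42 (5 of 8 listed), from 1.67 to 2.49 for the control word, 2.04 to 2.58 for the Ring1BKD word and 2.32 to 3.42 for the Dzip3KD word. Markers of primed epiblast summed to 2.12 to 2.66 in files 1 to 3 and 6.90 to 13.3 in files 4 to 6, most of it *Otx2*. The part of these markers in the results was not tested.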

How the data were processed

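According to the study's methods, libraries from a stranded mRNA kit were run on a MiSeq, reads were aligned to the mouse genome (build mm9 in the submitters' processing notes) with 1 mismatch allowed, and uniquely mapped reads were counted per gene. The authors deposited RPKM values, 1 list per library, without pooling. The annotation and whether counting used strand are not given in the sources used here. RPKM does not correct for RNA composition.

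Whole reads were recovered for 91.34% of genes from the steps of low RPKM values (tolerance 0.02 reads), which also gave the mapped reads per library; no count test was run on them. Coordinates are from GENCODE on NCBIM37, which is mm9. Promoters are from RefSeq on GRCm38.p6.

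Comparisons used limma 3.58.1 (R 4.3.3, variance trend) on log2(RPKM + 1) for the 11538 genes whose mean reached 0.5 RPKM, with Benjamini-Hochberg adjustment over them and a threshold of 0.05; differences on this scale understate the change of low genes. One fit used the sample labels without covariates, as the study's own model did. The other used the words in the file names with the set of file numbers (1 to 3, 4 to 6) as a block, and its coefficient for the set gave the comparison of file numbers. Deviations from the word means correlated at 0.418 to 0.473 between libraries of a set; those from the label means correlated at -0.242 to 0.0444 between libraries with the same replicate number. The code was tested on simulated data. The members, gene lists and comparisons were chosen with earlier results of these data known. All members are named. Other imprinted genes are named by level (the 10 highest) or by an unadjusted p under 0.05 with a log2 change of at least 0.5. Imprint regulators are named by level or call, and *Dppa3* and *Dnmt3l* by choice. Alternatives were another pseudocount (0.1), filter and scaling, no moderation, blocks, and leaving out each library.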

Additional observations from a re-analysis of the deposited data

How the results depend on the processing

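Of 200 alternative values for the 14 differences of members examined (those with an unadjusted p under 0.05), 177 kept direction and side of the threshold, 10 came past it, 11 no longer passed and 2 changed direction. *Grb10* for Dzip3-KD by label went to 0.057 with the set of file numbers as a block. *Meg3* between the sets of file numbers went to -0.30 when adjusted for the labels. In both fits the set difference comes from Ring1B-KD 1 and Ring1B-KD 2 alone. Between the sets of file numbers the *Grb10* call was lost with no filter on low values (adjusted p = 0.0937), no moderation (0.247) or adjustment for the labels (0.207), while its difference stayed at -0.79 to -0.83. The *Peg10* call was lost with no filter (0.127), no moderation (0.296), 75th percentile scaling (0.0511) or adjustment for the labels (0.293), at -0.55 to -1.52. The *H19* difference for the Dzip3KD word passed in 1 of 14 alternatives, without Ring1B-KD 2 (0.0445).

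Counts of called genes varied more. For the Ring1BKD word, 48 became 21 with a pseudocount of 0.1 and 0 with no filter, with no moderation or without the block, and 3 to 61 when single libraries were left out, the 3 without Dzip3-KD 1. For the file numbers, 879 became 0 with no filter, with no moderation or adjusted for the labels, and 351 to 509 with 1 library left out. For Dzip3-KD by label, 0 became 24 in the 4 libraries compared and 0 to 27 with 1 library left out (25 without Ring1B-KD 1, 27 without Ring1B-KD 2). For the Dzip3KD word it was 0 to 4, the 4 without Ring1B-KD 2. Where a word or label kept 1 library, that library was assumed to vary like the others. The replicate numbers do not pair the samples, and with the replicate block 1 gene was called for Dzip3-KD and 0 for Ring1B-KD, and 0 with the numbers crossed, which was added after seeing the data. Causes were not tested. In the order of levels, 4 of 10 members kept their place in files 4 to 6 alone.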

Other observations

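Genes that set or keep imprints were measured beside the imprinted genes, from a list of 19, all of them tested. *Trim28* (130.7 RPKM on average) and *Zfp57* (117.3), whose products bind imprinting control regions together, were the highest, followed by *Uhrf1*, which brings DNMT1 to replicated DNA (56.8), *Tet1* (27.6) and *Eed* (25.3). *Dnmt3l*, a cofactor of de novo methylation, was at 4.42 to 10.1 RPKM and *Dppa3*, which protects methylation in the early embryo, at 1.22 to 4.63.

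Between files 1 to 3 and files 4 to 6, 2 of the 19 were called in limma and both fell, where 7.62% of all tested genes were called. *Dnmt3b*, a de novo methyltransferase, was at 8.97, 11.1 and 8.84 RPKM in files 1 to 3 and 3.43, 3.25 and 5.09 in files 4 to 6, a fall by 1.12 ± 0.18 on the log2 scale (adjusted p = 0.0141). *Uhrf1* fell by 0.54 ± 0.11 (adjusted p = 0.0263). At an unadjusted p under 0.05, 6 of the 19 were lower and 0 higher, where 26.5% of all tested genes passed, with a median of -0.23 over the list beside -0.04 over all tested genes. By label and by word, 0 of the 19 passed the adjusted threshold. At an unadjusted p under 0.05 in limma, 1 was lower for Ring1B-KD and 5 were lower for Dzip3-KD by label (5.1% and 12.2% of all tested genes passed), 2 were higher and 2 lower for the Ring1BKD word, and 1 was higher for the Dzip3KD word (8.31% and 6.52%). *Dppa3* was the highest in both words, with 1.06 ± 0.21 (adjusted p = 0.113) for Ring1BKD and 0.69 ± 0.21 (adjusted p = 0.754) for Dzip3KD, at 3 to 13 reads per library.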
